A study of Mus musculus with 31 samples.

Results

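Gonads of XX mouse fetuses that lacked both Ctnnb1, the gene for β-catenin, and Sox9 in their somatic cells were compared with gonads of XX control fetuses at embryonic day 14.5. The comparison holds the 8 arrays whose titles name these groups, 4 for XX Ctnnb1/Sox9 DKO (XX DKO) and 4 for XX Ctr, of 31 arrays in the whole series. XX DKO fetuses carried the Sf1-cre transgene with Ctnnb1f/f and Sox9f/f. XX Ctr fetuses carried the same transgene with Ctnnb1+/f and Sox9+/f, so the Cre and at least 1 floxed allele of each gene were present in every group. The Cre is driven by regulatory sequence of Sf1 (Nr5a1), which is active in somatic cells of the gonad and in the adrenal cortex, and it is not designed to delete in germ cells, blood or vessels. The other groups used here were XX Ctnnb1KO with Ctnnb1f/f and Sox9+/f (4 arrays), XX Sox9KO with Ctnnb1+/f and Sox9f/f (4 arrays), XY DKO (3 arrays) with both deletions, and XY Ctr (4 arrays) with the control genotype. Each array held RNA of 1 pair of gonads freed from the mesonephros, and 40 ng of total RNA was amplified.

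Before birth the supporting cells of an XX gonad become pregranulosa cells, and secreted RSPO1 and WNT4 signal through β-catenin in them to sustain ovarian genes such as Fst. In an XY gonad SRY turns on SOX9, which drives Sertoli cell genes, and Sertoli cells in turn instruct Leydig cells, which make androgens. Loss of WNT4, RSPO1 or β-catenin in XX mouse gonads is known to allow steroid-making cells and some testis genes to appear.

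Signals are linear MAS5 values in arbitrary units, in which a probe set is a group of short probes to 1 transcript and every array has the same trimmed mean of 500.0. The median signal per array was 141.8 to 160.3 in XX DKO and 149.6 to 168.8 in XX Ctr. The ratio of 3' to 5' Gapdh control signal, which reads RNA integrity and amplification, was 2.66 to 3.22 in XX DKO and 2.50 to 2.99 in XX Ctr. Differences are given on the log2(signal + 16) scale, XX DKO minus the group named, with the SE from limma fitted over all arrays and p-values adjusted by Benjamini-Hochberg over 11777 genes. This scale understates the change of genes with low signal. In a principal component analysis of the 8 arrays, the first component, with 43.1% of the variance, held XX DKO at 17.4 to 24.8 and XX Ctr at -21.6 to -17.9. Because whole gonads were measured, fewer cells of a type and less RNA per cell cannot be told apart.

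The 2 targeted genes were examined first. Sox9 had signals of 27.1, 50.9, 6.30 and 9.70 in XX DKO, against 174, 11.7, 119 and 174 in XX Ctr. It fell by 1.59 ± 0.44 (SE, adjusted p = 0.012), but replicate 2 of XX Ctr lay among the XX DKO values. That is the brightest of its 3 probe sets, and the dimmer ones differed by -0.50 and 0.23. For comparison, XY Ctr gonads had 929 ± 94.5 (SD, n = 4), so XX Ctr held Sox9 at a low level. The call was lost when only the 8 arrays were fitted (adjusted p = 0.116) and without XX Ctr replicate 1 (0.0622), XX Ctr replicate 4 (0.0577) or XX DKO replicate 3 (0.0553). Ctnnb1 had 13147 ± 354 in XX DKO and 12532 ± 1161 in XX Ctr (SD, n = 4 each), a difference of 0.07 ± 0.06 (SE, adjusted p = 0.50). The 3 Ctnnb1 probe sets differed by 0.07, 0.03 and -0.05. The place of the Ctnnb1 and Sox9 probe sets relative to the floxed exons is not known here, so they check no label. Xist, which is made from the inactive X chromosome, was 8739 ± 779.7 in XX DKO and 8424 ± 889 in XX Ctr (SD, n = 4 each), and the Y-linked gene Eif2s3y was at most 30.3 on these 8 arrays, against 3629 ± 96.7 in XY DKO (SD, n = 3).

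The gonads that lacked both genes had lost much of their ovarian expression. Some genes of the testis, of the Nodal pathway, of steroid synthesis and of muscle were higher. Of 11777 genes tested, 1519 were called at an adjusted p under 0.05 (12.9%), 858 higher in XX DKO (7.29%) and 661 lower (5.61%). At least a 2-fold difference was seen in 269 of them, 157 higher and 112 lower. The 4 arrays of XX DKO all lay above the 4 of XX Ctr for 8.6% of genes tested and all below them for 6.9%. The median difference over all genes tested was 0.01.

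**Figure D1:**
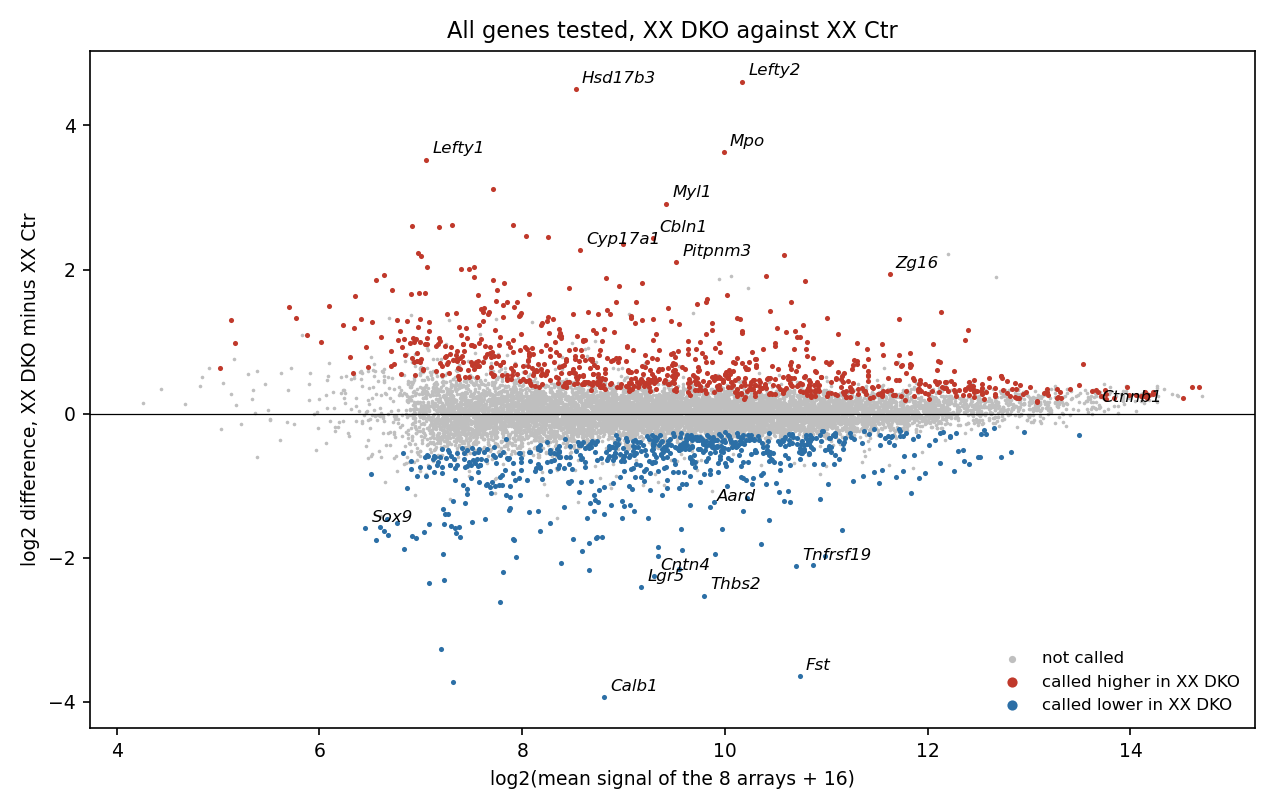
Difference between XX DKO and XX Ctr (log2 scale, vertical) against mean signal of the 8 arrays (log2 of signal plus 16, horizontal) for 11777 genes, 1 point a gene. Genes called higher in XX DKO are red, genes called lower are blue and others are grey. Lefty2 at 4.61 and Hsd17b3 at 4.50 are the highest points, Calb1 at -3.93 is the lowest, and Ctnnb1 lies near 0.

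Ovarian genes fell as a group. All 14 tested members of the pregranulosa and ovary list were called, 13 lower and 1 higher, with a median of -0.87 against 0.01 over all genes. Of those called lower, Gng13 lost its call without XX Ctr replicate 1, 2, 3 or 4 or XX DKO replicate 1, 2 or 4. Fzd1, also counted here, lost its call as given with the WNT genes below. Follistatin, Fst, an activin antagonist that depends on WNT signalling in the fetal ovary, had 249.7, 208, 203 and 289 in XX DKO, against 3456, 3269.9, 2696 and 3144 in XX Ctr. Its groups lay far apart and it fell by 3.65 ± 0.13 (SE, adjusted p = 1.43e-19). Foxl2, the forkhead factor that maintains granulosa cell identity, fell less. It had 774, 1041, 742 and 727 in XX DKO, against 1500.4, 1576, 1693 and 1669.6 in XX Ctr, a fall of 0.97 ± 0.15 (SE, adjusted p = 2.78e-05). The XX DKO mean of 821 ± 148 was far above the XY Ctr mean of 50.9 ± 9.30 (SD, n = 4 each).

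The homeobox and signalling genes of the ovary list varied in size. Msx1 and Msx2, homeobox factors that in the fetal ovary act beside BMP signals to promote meiosis, fell by 1.60 ± 0.16 and 1.73 ± 0.37 (SE, adjusted p = 1.1e-08 and 0.0014). Irx3, a homeobox factor of pregranulosa cells, was 717 ± 68.3 in XX DKO and 1625 ± 48.3 in XX Ctr (SD, n = 4 each). Kitl, the ligand that binds KIT on germ cells, was 2306 ± 357 in XX DKO and 4970.0 ± 656 in XX Ctr (SD, n = 4 each), and its 4 probe sets all fell, by 1.09 to 1.26. Bmp2 fell by 0.95 ± 0.14 and Runx1, a factor that shares targets with FOXL2, by 0.78 ± 0.15 (SE, adjusted p = 1.09e-05 and 0.000329). Cntfr, the receptor for ciliary neurotrophic factor, was the 1 member that rose, by 0.57, and lost its call without XX Ctr replicate 1 or XX DKO replicate 1.

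The WNT pathway genes split by role. Among ligands, receptors and their partners, 5 of 16 tested fell and 2 rose, beside 5.61% lower and 7.29% higher over all genes tested. Wnt4, the ligand needed for ovarian development, had 778, 878, 712 and 812 in XX DKO, against 1525, 1550.2, 1284 and 1602 in XX Ctr, so it fell by 0.89 ± 0.11 (SE, adjusted p = 9.36e-07) with no overlap. Rspo1, the secreted amplifier of WNT signals, went the other way: 4525, 3646, 4025 and 4689.7 in XX DKO, against 2538, 2809, 2562 and 2594 in XX Ctr, a rise of 0.68 ± 0.10 (SE, adjusted p = 1.14e-05). Lgr5, a receptor for R-spondins and itself a target of β-catenin, had 127, 137, 223 and 191 in XX DKO, against 771, 1072, 954 and 1020.4 in XX Ctr. It fell by 2.41 ± 0.16 (SE, adjusted p = 1.74e-12). The receptor Fzd1 was called lower and the ligand Wnt5a higher. Fzd1 lost its call without XX Ctr replicate 1, 3 or 4 or XX DKO replicate 2, 3 or 4, and Wnt5a without XX Ctr replicate 3 or 4 or XX DKO replicate 1, 2 or 4.

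Feedback genes are induced by β-catenin and its TCF and LEF partners and then damp the pathway. Their list, which also holds other targets, secreted antagonists and TCF and LEF genes, was the more uniform group. In it 9 of 17 tested fell and 1 rose, with a median of -0.42, where 5.61% of all genes tested were called lower. Tnfrsf19 (TROY), a receptor that is induced by WNT in many tissues, had 596, 507, 701 and 644 in XX DKO, against 2542, 2668, 2687 and 2872 in XX Ctr. It fell by 2.12 ± 0.09 (SE, adjusted p = 5.46e-17), and its other 2 probe sets fell by 1.96 and 1.81. Axin2, a scaffold of the complex that destroys β-catenin, had 868, 779.6, 899.9 and 854 in XX DKO, against 1438, 1698, 1498 and 1761 in XX Ctr. It fell by 0.90 ± 0.12 (SE, adjusted p = 2.85e-06), and XX DKO remained above the XY Ctr mean of 634 ± 115 (SD, n = 4). Rnf43 and Znrf3, ligases that remove frizzled receptors from the cell surface, fell by 1.12 and 0.42, the inhibitors Nkd1 and Nkd2 by 0.64 and 0.82, Apcdd1 by 0.68 and Lef1 by 0.63. Lef1 lost its call without XX DKO replicate 2 (adjusted p = 0.0863). Sfrp1, a secreted WNT antagonist, rose by 0.45, but lost its call without XX Ctr replicate 2 or XX DKO replicate 1 (adjusted p = 0.087 and 0.0568). Sp5 and Ccnd1, both often used as WNT targets, differed by 0.07 ± 0.31 and -0.09 ± 0.10 (SE, adjusted p = 0.92 and 0.61).

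A pair of promoter windows is shown because both hold the letters CTTTGAT, the core to which TCF and LEF factors bind, and 1 belongs to a gene that fell and 1 to a gene that rose. The sequences are the 250 bases before a transcript start, from RefSeq on GRCm38.p6, written in the direction of the gene, with the match in capitals (both are on the other strand and read ATCAAAG). Tnfrsf19 lies on the minus strand of chr14:61037988-61038237, the window of 1 of its annotated starts, with the match 202 bases before the start. Myh6, a heart myosin described below, lies on the minus strand of chr14:54966608-54966857, with the match 91 bases before the start.
Tnfrsf19: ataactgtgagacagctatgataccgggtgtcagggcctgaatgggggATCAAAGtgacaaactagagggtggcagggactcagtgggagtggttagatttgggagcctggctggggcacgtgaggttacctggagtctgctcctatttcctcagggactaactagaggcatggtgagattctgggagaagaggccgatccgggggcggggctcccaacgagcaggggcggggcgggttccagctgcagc
Myh6: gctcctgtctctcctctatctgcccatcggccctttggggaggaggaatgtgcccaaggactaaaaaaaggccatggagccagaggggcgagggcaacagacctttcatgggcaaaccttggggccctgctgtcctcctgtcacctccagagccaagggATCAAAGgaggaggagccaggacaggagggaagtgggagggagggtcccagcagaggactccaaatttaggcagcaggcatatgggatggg
Over all promoter windows of this length, 3.21% hold the letters on either strand. Of windows of genes tested here 2.25% hold them, of genes lower in XX DKO 2.97% (21 of 706 windows) and of genes higher in XX DKO 2.25% (20 of 889 windows). A match is a description of letters, not a site.

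**Figure D2:**
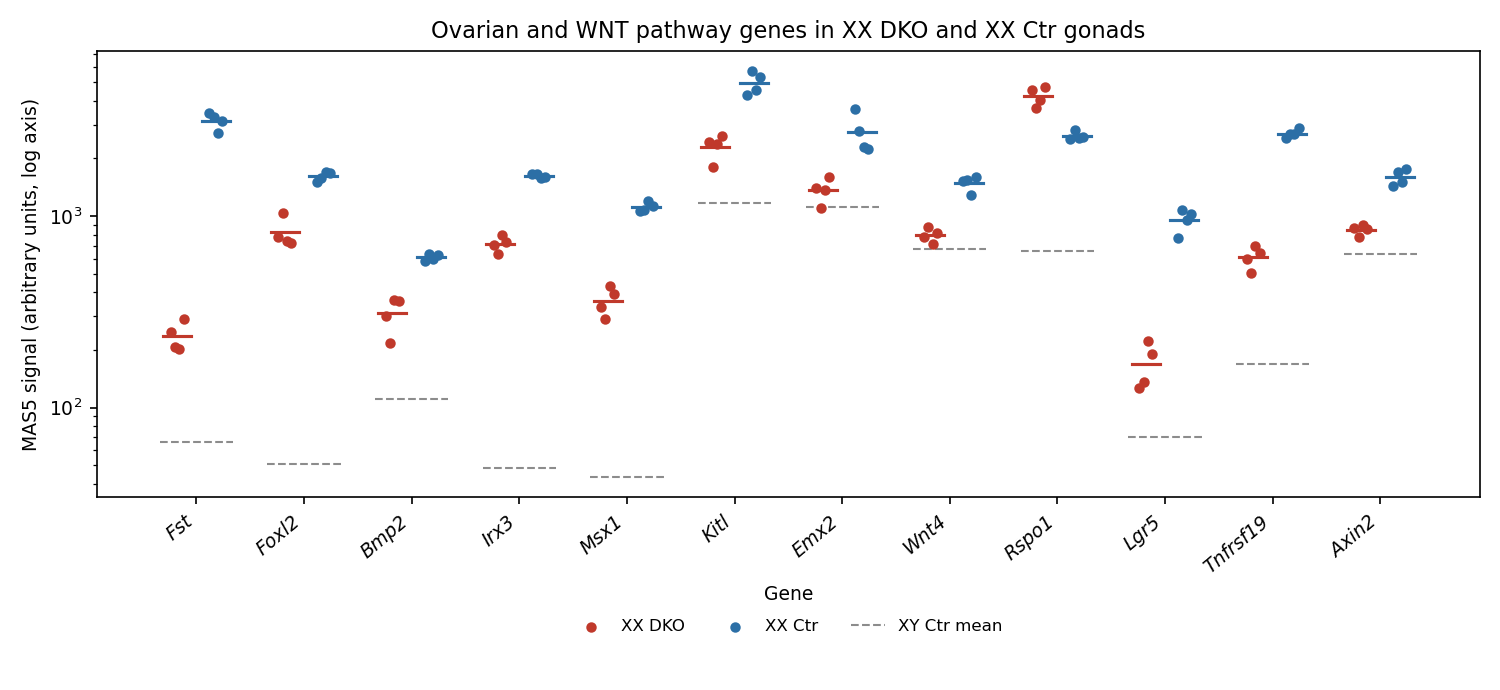
Signal (arbitrary units, log axis) of ovarian and WNT pathway genes in each XX DKO and XX Ctr array, 1 point an array, with short bars at group means and dashed lines at the XY Ctr mean. Fst, Lgr5 and Tnfrsf19 are separated by the widest gaps, and Rspo1 alone of the WNT genes drawn is higher in XX DKO.

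β-Catenin also joins cadherins at cell contacts. Of 9 catenin and cadherin genes tested, 2 rose and none fell, beside 7.29% higher and 5.61% lower over all genes tested. Jup, encoding plakoglobin, the closest relative of β-catenin, was 404 ± 47.5 in XX DKO and 269.5 ± 51.4 in XX Ctr (SD, n = 4 each) and rose by 0.57 ± 0.12 (SE, adjusted p = 0.00177). Cdh3, P-cadherin, rose by 0.68, and without XX Ctr replicate 4 the count was 1. Of 11 transcription factors of the early gonad tested, 3 rose and 1 fell. Emx2, which is needed for the gonad to form, fell by 0.98 ± 0.14 (SE, adjusted p = 7.61e-06), while Tcf21, a factor of interstitial cells, rose by 0.50. Without XX DKO replicate 1 only 1 of the 3 rises was called. Nr5a1, the gene whose regulatory sequence drives the Cre, was 1333 ± 192 in XX DKO and 1393 ± 135 in XX Ctr (SD, n = 4 each, adjusted p = 0.73), and Wt1 differed by -0.19 (adjusted p = 0.33).

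Testis genes did not move as 1 block. Of 22 tested genes of the Sertoli cell and testis list, 11 rose and 3 fell, and the median was 0.50. Over all genes tested, 7.29% were called higher and 5.61% lower. Hsd17b3, which converts androstenedione to testosterone and is made by fetal Sertoli cells in mice, had 619, 919, 688 and 534 in XX DKO, against 25.2, 18.6, 5.90 and 12.1 in XX Ctr. It rose by 4.50 ± 0.25 (SE, adjusted p = 5.24e-14) and reached 690.2 ± 165 in XX DKO, against 2656 ± 221 in XY Ctr (SD, n = 4 each). Dhh, the hedgehog ligand by which Sertoli cells induce Leydig cells, had 166, 195, 155 and 185 in XX DKO, against 44.8, 35.3, 75.0 and 28.8 in XX Ctr. It rose by 1.68 ± 0.17 (SE, adjusted p = 1.1e-08), on the brighter of its 2 probe sets. The dimmer one differed by -0.66 and never exceeded an array's median. XX DKO stayed far below the XY Ctr mean of 2248 ± 164 for Dhh (SD, n = 4).

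Other risers of the list were Hsd17b1, a second enzyme of sex steroid conversion, by 2.03, Ptgds, the prostaglandin D synthase of Sertoli cells, by 1.81, Cst9 by 1.31, Vnn1 by 1.31 and Inhbb by 0.75. Gdnf rose by 0.98, but lost its call without XX Ctr replicate 1, 2 or 4 or XX DKO replicate 1, 3 or 4. Vnn1, a pantetheinase, reached 1597 ± 212 in XX DKO, against 1687 ± 146 in XY Ctr (SD, n = 4 each), whereas Cst9, a cystatin, was 434 ± 66.5 in XX DKO and 6315 ± 659.9 in XY Ctr (SD, n = 4 each). The fallers were Sox9 itself, Cldn11 and Aard. Aard, a gene strongly expressed in Sertoli cells, had 510.1, 647, 528 and 418 in XX DKO, against 1334, 1185, 1331 and 1339 in XX Ctr. It fell by 1.29 ± 0.13 (SE, adjusted p = 8.59e-09), and both groups were below XY Ctr at 6687 ± 681 (SD, n = 4). Without XX Ctr replicate 1 or XX DKO replicate 3, Sox9 and Cldn11 lost their calls and Aard kept its own.

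Amh, Sox8, Dmrt1 and Fgf9, which define Sertoli cells or act beside SOX9, were not called. Amh, the hormone that removes the Müllerian ducts, had 9.30, 10.2, 54.4 and 13 in XX DKO, against 13.1, 7.60, 5.80 and 48.3 in XX Ctr, all below every array's median, and differed by 0.12 ± 0.38 (SE, adjusted p = 0.88). Sox8, a close relative of Sox9, was 102 ± 8.70 in XX DKO and 107 ± 31.7 in XX Ctr (SD, n = 4 each). XY Ctr had 215 ± 13.1 for Amh and 649 ± 98.5 for Sox8 (SD, n = 4 each). Dmrt1 and Fgf9 differed by 0.09 ± 0.30 and 0.42 ± 0.18 (SE, adjusted p = 0.89 and 0.13).

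**Figure D3:**
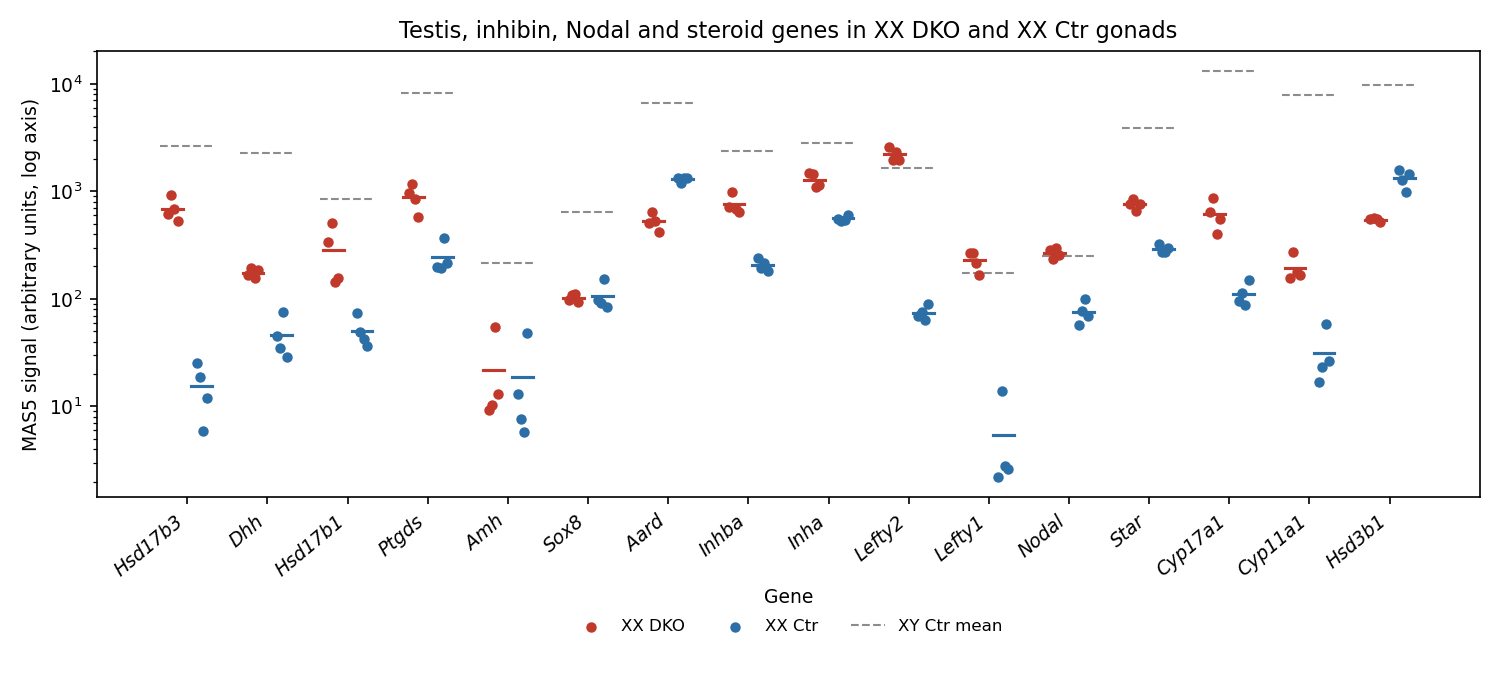
Signal (arbitrary units, log axis) of testis, inhibin, Nodal pathway and steroid genes in each XX DKO and XX Ctr array, 1 point an array, with short bars at group means and dashed lines at the XY Ctr mean. Hsd17b3, Lefty2 and Lefty1 are separated by the widest gaps, Amh and Sox8 overlap, and Aard and Hsd3b1 are lower in XX DKO.

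Activins and inhibins, ligands of the TGFβ family that share subunits, rose together while their antagonist Fst fell. Inhba, the βA subunit, had 708, 979, 688 and 649 in XX DKO, against 238, 194, 217 and 180.3 in XX Ctr, a rise of 1.78 ± 0.15 (SE, adjusted p = 1.95e-10). Inha, the α subunit that makes an inhibin, had 1465, 1434, 1107 and 1135 in XX DKO, against 556, 532, 545 and 602 in XX Ctr, a rise of 1.17 ± 0.12 (SE, adjusted p = 1.92e-08). The βB subunit Inhbb rose by 0.75 ± 0.13 (SE, adjusted p = 8.82e-05). None of these 3 genes overlapped between the groups, where 8.6% of genes tested were separated in that direction. XX DKO lay between XX Ctr and XY Ctr for each. In the whole list of activin and BMP genes 3 of 15 tested rose and 4 fell, beside 7.29% higher and 5.61% lower over all genes tested. The fallers were Fst, Bmp2 and 2 genes that BMP signals induce, Id2 by 0.55 and Id3 by 0.51. Id2 lost its call without XX Ctr replicate 1 (adjusted p = 0.0761).

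The Nodal pathway held the largest rise among the listed genes. Lefty2, a secreted inhibitor that Nodal signalling induces, had 2607, 1941, 2299.6 and 1959 in XX DKO, against 68.8, 75.3, 64.2 and 90.2 in XX Ctr. The groups lay far apart and the difference was 4.61 ± 0.16 (SE, adjusted p = 1.43e-19). Lefty1, its close relative, had 269, 266, 214 and 166 in XX DKO, against 2.20, 14, 2.80 and 2.60 in XX Ctr, a rise of 3.53 ± 0.32 (SE, adjusted p = 1.81e-09). Nodal itself had 285, 235, 299.9 and 258 in XX DKO, against 57.0, 77.2, 99.8 and 69.4 in XX Ctr, a rise of 1.65 ± 0.25 (SE, adjusted p = 1.13e-05). XX DKO means for the 3 genes were close to or above those of XY Ctr, where Nodal signals act in germ cells: Lefty2 was 2202 ± 316 in XX DKO and 1647 ± 203 in XY Ctr (SD, n = 4 each), a difference of 0.41 (adjusted p = 0.049). The coreceptor gene Tdgf1 (Cripto) and the factor gene Foxh1 differed by 0.55 and 0.22 and were not called. Thus 3 of 6 tested genes of this list rose, with a median of 1.15, where 7.29% of all genes tested were called higher.

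Steroid genes split in direction. Of 6 tested genes of the Leydig cell list, 3 rose and 1 fell, beside 7.29% higher and 5.61% lower over all genes tested. The summed signal of the list overlapped, at 5342 to 6867 in XX DKO and 4929 to 5576 in XX Ctr. In XY Ctr it was 44967 to 51330. Star, which brings cholesterol into mitochondria, had 756, 852, 661 and 758 in XX DKO, against 324, 270.0, 272 and 299.6 in XX Ctr, a rise of 1.33 ± 0.12 (SE, adjusted p = 1.3e-09). Cyp17a1, which makes androgens from C21 steroids, had 636, 875, 402 and 549 in XX DKO, against 95.9, 114, 87.3 and 151 in XX Ctr, a rise of 2.27 ± 0.25 (SE, adjusted p = 7.65e-08). Hsd3b1, a 3β-hydroxysteroid dehydrogenase, had 550.2, 566, 553 and 518 in XX DKO, against 1570.1, 1275, 989 and 1451 in XX Ctr, and so fell by 1.23 ± 0.17 (SE, adjusted p = 4.31e-06). All 3 genes separated the groups completely, but in different directions. Over all genes tested, 8.6% were separated upwards and 6.9% downwards.

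Cyp11a1, the side chain cleavage enzyme that starts steroid synthesis, rose by 2.19 ± 0.31 (SE, adjusted p = 4.09e-06) on its brightest probe set, from which XX DKO had 157, 272, 176 and 167 and XX Ctr 16.8, 23.3, 58.4 and 26.3. A second probe set annotated to Cyp11a1 fell by 1.33, and the mean over its probe sets differed by 0.31 (adjusted p = 0.152). Only the first of these 2 probe sets was high in XY Ctr (7901.5 against 176.5 for the other). XY Ctr means of Cyp17a1 and Star, 13128 ± 1534 and 3842 ± 221 (SD, n = 4 each), were several times those of XX DKO. Among 4 tested genes of the adrenal cortex, Cyp11b1, the 11β-hydroxylase, rose by 1.49 ± 0.29 (SE, adjusted p = 0.00053) at low signal, 61.4 ± 24.5 in XX DKO and 10.7 ± 3.40 in XX Ctr (SD, n = 4 each), and Cyp21a1, Mc2r and Mrap were not called.

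Hedgehog targets, which DHH induces in interstitial cells of the testis, were not called: Gli1 differed by 0.53 ± 0.29, Ptch1 by 0.04 ± 0.09 and Hhip by -0.36 (adjusted p = 0.25 for Gli1 and 0.81 for Ptch1). Other interstitial genes were higher. Pdgfra, a receptor of interstitial progenitors, had 4379, 3894, 4062 and 3468 in XX DKO, against 2076, 1997, 1951 and 2030.2 in XX Ctr, a rise of 0.96 ± 0.11 (SE, adjusted p = 2.07e-07). Jag1, a Notch ligand of the interstitium, and Gli2, a mediator of hedgehog signals, rose by 0.83 and 0.90. In all 4 of 10 tested genes of this list rose and none fell, where 7.29% of all genes tested were called higher. Of the retinoic acid genes, Aldh1a3, a retinaldehyde dehydrogenase, had 75.2, 76.7, 58.4 and 44.8 in XX DKO, against 295, 190.0, 186 and 208 in XX Ctr, a fall of 1.56 ± 0.17 (SE, adjusted p = 4.6e-08), and Aldh1a1 fell by 0.31. The gene for the degrading enzyme, Cyp26b1, differed by 0.29 and was not called.

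Some genes of germ cells, in which the Cre is not designed to delete, differed as well. Of 14 tested germ cell genes 4 rose and none fell, with a median of 0.44, where 7.29% of all genes tested were called higher. Pou5f1 (Oct4), which female germ cells turn off as meiosis begins, had 1626, 1442, 1779 and 1364 in XX DKO, against 350.5, 811, 577 and 821 in XX Ctr, a rise of 1.33 ± 0.35 (SE, adjusted p = 0.0097). Dppa5a and Dppa3, pluripotency-associated genes of early germ cells, rose by 1.42 and 1.16 and Ifitm3 by 0.69. Ddx4 and Dazl, which mark germ cells before and after that switch, differed by 0.10 ± 0.18 and 0.25 ± 0.25 (SE, adjusted p = 0.77 and 0.55). XX Ctr replicate 1 was the lowest for Pou5f1, Dppa5a and Dppa3, and without it the adjusted p of Pou5f1 was 0.0562.

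Meiotic genes pointed lower with few calls. Of 20 tested, 19 had a difference below 0, beside 5596 of all 11777 genes tested, and the median was -0.42. The summed signal of the list overlapped, at 21370 to 50737 in XX DKO and 33996 to 59492 in XX Ctr. Only 2 of these genes were called, both lower, where 5.61% of all genes tested were called lower. Rec8, a cohesin of meiotic chromosomes, had 1198, 1119, 1291 and 1123 in XX DKO, against 2402, 2864, 2804 and 2782 in XX Ctr, a fall of 1.19 ± 0.16 (SE, adjusted p = 1.87e-06) with no overlap. Stra8, the gene that retinoic acid induces to start meiosis, had 2681, 5026, 3278 and 1997 in XX DKO, against 3128, 3962, 6182 and 5079 in XX Ctr. The groups overlapped and the difference was -0.53 ± 0.32 (SE, adjusted p = 0.31). Mei1, the other gene called, lost its call without XX Ctr replicate 3 or 4 or XX DKO replicate 1, 3 or 4, which left 1 call, and without XX DKO replicate 2 the count was 5. None of 6 tested genes of fetal male germ cells was called in limma, and 1 had an unadjusted p under 0.05.

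Part of the striated muscle genes rose. Of 15 tested genes of striated muscle, 6 rose and none fell, with a median of 0.34, where 7.29% of all genes tested were called higher. Myl1, a light chain of fast skeletal myosin, had 1501, 1012, 1142 and 1104 in XX DKO, against 123, 109, 165 and 184 in XX Ctr, a rise of 2.91 ± 0.27 (SE, adjusted p = 2.28e-09). Fabp3, the fatty acid binding protein of heart and muscle, had 2537, 3084, 2013 and 2367 in XX DKO, against 377, 439.8, 725 and 627 in XX Ctr, a rise of 2.20 ± 0.18 (SE, adjusted p = 1e-10). Tnnt2 and Tnnc1, cardiac troponins, rose by 1.55 and 1.38 and the heart myosin Myh6 by 1.26. The skeletal muscle regulators Myod1 and Myog did not pass the filter on low signal (46.7 ± 9.20 and 82.6 ± 36.8 in XX DKO, 38.3 ± 8.10 and 74.3 ± 11.4 in XX Ctr, SD, n = 4 each), nor did Pax7, Ckm and Acta1. Actc1, Mylpf and Des were tested and not called. XY Ctr had 54.7 ± 33.0 for Myl1 (SD, n = 4).

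Of 4 smooth muscle genes tested, Acta2, Myh11 and Smtn rose, by 0.81, 0.79 and 0.54. The dimmer probe sets, which stayed below the array medians, differed by -0.22 and 0.31 for Acta2 and by -0.17 for Myh11. The means over the probe sets of Acta2 and of Myh11 were not called. Among 18 matrix genes 4 rose and 2 fell, beside 7.29% higher and 5.61% lower over all genes tested. The basement membrane genes Col4a1, Col4a2 and Lamb1 rose by 0.46, 0.47 and 0.39. The remaining riser, Col1a2, lost its call with quantile normalization and with the mean over probe sets (adjusted p = 0.221 and 0.0576 in limma). Thbs2, a thrombospondin, had 260.3, 306, 207 and 224 in XX DKO, against 1612, 1401, 1497 and 1484 in XX Ctr, and fell by 2.53 ± 0.15 (SE, adjusted p = 4.32e-13), on all 3 of its probe sets. The other faller, the collagen gene Col9a3, lost its call without XX Ctr replicate 1, 2, 3 or 4, XX DKO replicate 2 or 4 or XX Ctnnb1KO replicate 4, and with the replicate number as a block, where the count was 1.

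Genes of blood cells differed too, and their part in the other results was not tested. Of 14 tested macrophage genes 10 rose and none fell, with a median of 0.83, where 7.29% of all genes tested were called higher. Fcgr3, C1qc and Csf1r, an Fc receptor, a complement subunit and the receptor for macrophage growth factor, rose by 1.18, 1.38 and 0.76. Summed over the list, signal was 10514 to 13323 in XX DKO and 5144 to 8863 in XX Ctr. Granulocyte genes were uneven: the summed signal of 9 genes was 11754 to 28143 in XX DKO and 382 to 14552 in XX Ctr, where replicate 2 held the lowest value. Mpo, the myeloperoxidase of granulocytes and their precursors, had 1839.8, 1333, 1543 and 1806 in XX DKO, against 1312, 16, 81.9 and 55.9 in XX Ctr, a rise of 3.63 ± 0.87 (SE, adjusted p = 0.0039). Ctsg and Prtn3, also called higher, lost their calls without XX Ctr replicate 2 (adjusted p = 0.119 and 0.111), and without XX Ctr replicate 3 or 4 or XX DKO replicate 1, 3 or 4 only Mpo was called too. S100a8 overlapped and was not called (adjusted p = 0.14).

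Red cell and endothelial genes gave fewer differences. None of 8 tested genes of red cells was called in limma, and 0 had an unadjusted p under 0.05. Their summed signal was 18002 to 31119 in XX DKO and 18589 to 25113 in XX Ctr. Of 15 endothelial genes Pecam1 was called higher and Emcn lower, where 12.9% of all genes tested were called. Pecam1 lost its call without XX Ctr replicate 1 or 3 or XX DKO replicate 2, 3 or 4. It also lost its call with the replicate number as a block (adjusted p = 0.0623 in limma). Emcn lost its call without XX Ctr replicate 3. The list had a summed signal of 6876 to 7650 in XX DKO and 6925 to 7592 in XX Ctr. Of 8 arterial genes tested 2 rose and none fell. Gja5, a connexin of arteries, rose by 0.88 ± 0.17 (SE, adjusted p = 0.00054) at low signal. It was 119.2 ± 17.3 in XX DKO and 57.5 ± 6.40 in XX Ctr (SD, n = 4 each), below the median of each of these arrays. Efnb2, the other riser, lost its call without XX Ctr replicate 2, 3 or 4 or XX DKO replicate 1, 3 or 4. The arterial list had a summed signal of 5165 to 6086 in XX DKO and 4908 to 5950 in XX Ctr. The 3 tested genes of the mesonephros list were all called, but not in 1 direction: Calb1 fell by 3.93 ± 0.26, Pax8 fell by 1.54 ± 0.25 and Lhx1 rose by 2.23 ± 0.29 (SE, adjusted p = 1.74e-12, 4.58e-05 and 1.45e-06). The kidney duct genes Cdh16, Ret, Gata3 and Wnt9b did not pass the filter. Calb1, calbindin, had 34.9, 27.0, 34.3 and 56.9 in XX DKO, against 1131, 831, 502 and 849 in XX Ctr. Of 11 cell cycle genes 3 rose, Cdk1 and Plk1 by 0.59 and 0.62 and Mki67 by 0.26. Mki67 differed by 0.09 with quantile normalization, where it was not called, and without XX Ctr replicate 2 or XX DKO replicate 1 the count was 1.

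Stress genes did not rise together. Pmaip1 (Noxa), which promotes cell death, had 183, 227, 179.9 and 173 in XX DKO, against 21.6, 9.10, 27.0 and 16.1 in XX Ctr, a rise of 2.61 ± 0.25 (SE, adjusted p = 4.45e-09), and it was higher still in XY Ctr at 842 ± 246 (SD, n = 4). Nupr1, a stress-induced nuclear protein, rose by 2.36 ± 0.32 with a wide spread, 841, 1657, 517 and 412 in XX DKO, against 151, 90.1, 162 and 135 in XX Ctr. Cdkn1a (p21) and Ddit4 fell by 0.49 and 0.33, but both lost their calls without XX DKO replicate 2, and Ddit4 also without XX Ctr replicate 2 or 4 or XX DKO replicate 4. Among immediate early and heat shock genes Egr1 alone of 9 tested was called, where 12.9% of all genes tested were. Egr1 had 1345, 1729.5, 1420.0 and 1728 in XX DKO, against 447, 552, 480.4 and 452 in XX Ctr, a rise of 1.65 ± 0.12 (SE, adjusted p = 1.55e-11).

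**Figure D4:**
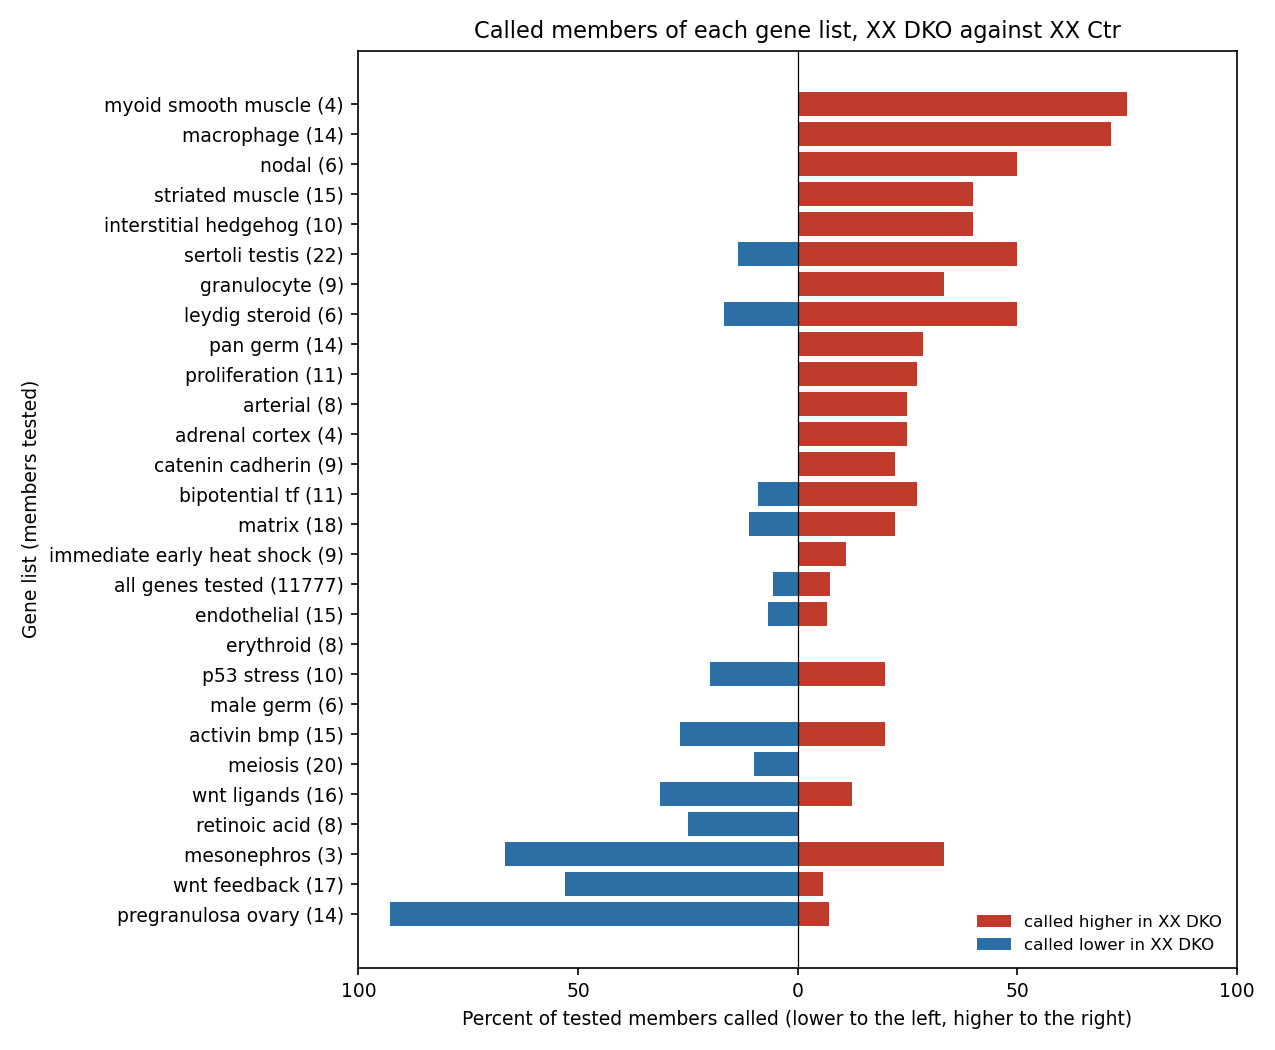
Percent of the tested members of each gene list that were called, lower in XX DKO to the left and higher to the right, with the number tested in parentheses. The pregranulosa and WNT feedback lists extend to the left and the macrophage, muscle and Nodal lists to the right, beside 5.61% and 7.29% over all genes tested.

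Outside the lists, genes with separated arrays were ranked where the mean of the higher group exceeded that of the median gene tested, which leaves out dimmer genes with changes as large. By this rule the largest falls were Cntn4, a neuronal adhesion molecule, by 2.25, Sorbs2, a cytoskeletal adaptor, by 2.10, Dcaf12l1 by 1.98, Gstm6, a glutathione transferase, by 1.94 and Akr1c14, an aldo-keto reductase, by 1.89. Cntn4 had 259, 184, 172 and 187 in XX DKO, against 1393, 1068, 745 and 920.2 in XX Ctr. Fat4, a large protocadherin, fell by 1.48. Sorbs2 was 689 ± 53.1 in XX DKO and 3018 ± 259.9 in XX Ctr, and XY Ctr was 699.5 ± 127 (SD, n = 4 each) (difference of XX DKO and XY Ctr -0.01, adjusted p = 0.97).

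By the same rule the largest rises outside the lists were Cbln1, a secreted synapse organiser, by 2.43, Pitpnm3, a membrane lipid transfer protein, by 2.11, Zg16 by 1.94, Thbd, thrombomodulin, by 1.91 and Cxcl12, the chemokine that attracts CXCR4 cells, by 1.84. Cxcl12 had 2911, 3039, 2426 and 2587 in XX DKO, against 900.4, 537, 798 and 813 in XX Ctr, and its 3 probe sets rose by 1.84, 2.18 and 1.98. Cbln1 had 1619, 889, 852 and 814 in XX DKO, against 116, 190.5, 182 and 217 in XX Ctr, and 5552 ± 449.6 in XY Ctr (SD, n = 4). Tnc, tenascin C, and Reln, reelin, rose by 1.47 and 1.35.

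Some genes lay outside the range between the 2 control sexes. XX DKO was called lower than both XX Ctr and XY Ctr for 163 genes (1.38%) and higher than both for 228 (1.94%). Gstm6 had 397, 311, 409 and 401 in XX DKO, against 1448, 1473, 1531 and 1536 in XX Ctr, and 2002 ± 93.9 in XY Ctr (SD, n = 4). Aard, Hsd3b1, Aldh1a3, Sox9, Pax8 and the signalling gene Bmp5 were likewise below both, with Bmp5 at -1.34 against XX Ctr and -1.93 against XY Ctr. Myl1 exceeded XX Ctr by 2.91 and XY Ctr by 4.20, Zg16 by 1.94 and 2.27, and Pitpnm3 by 2.11 and 1.63. Ky, encoding a muscle protein, had 291, 377, 371 and 402 in XX DKO, against 23.0, 22.2, 22.5 and 44.5 in XX Ctr, and 61.1 ± 6.0 in XY Ctr (SD, n = 4). Nr5a2, a nuclear receptor related to Nr5a1, exceeded XX Ctr by 1.66 and XY Ctr by 1.64. Bmp5, Ky and Nr5a2 were chosen for mention after their values were seen.

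Whether the loss of Sox9 added to the loss of Ctnnb1 is asked by setting XX DKO against XX Ctnnb1KO. The latter retains a copy of Sox9 that is not floxed. No gene was called (0% of 11777), and the smallest adjusted p was 0.243 in limma. An unadjusted p under 0.05 was seen for 965 genes, more than the about 1 in 20 that chance gives. The 95% interval of the difference had a median width of 0.26 on each side, and for 98.2% of genes it lay within a 2-fold change in either direction. Some of the widest differences against XX Ctr were small between these groups. Fst was 237 ± 40.2 in XX DKO and 222 ± 23.1 in XX Ctnnb1KO, with an interval of the difference of -0.18 to 0.34, and Lefty2 was 2202 ± 316 in XX DKO and 2093 ± 366 in XX Ctnnb1KO, with an interval of -0.25 to 0.40 (SD, n = 4 each). Hsd17b3 was 690.2 ± 165 in XX DKO and 682 ± 68.3 in XX Ctnnb1KO (SD, n = 4 each), with a wider interval of -0.52 to 0.51. Granulocyte genes differed more, with all 9 above 0 and a median difference of 1.08, and 0 had an unadjusted p under 0.05. Mpo differed by 0.93 with an interval of -0.84 to 2.71. Aard, which fell against XX Ctr, was 526 ± 94.3 in XX DKO and 498 ± 83.6 in XX Ctnnb1KO, and Myl1 1189.9 ± 215 in XX DKO and 1088 ± 213 in XX Ctnnb1KO (SD, n = 4 each).

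Sox9 is the gene that the genotypes of these groups set apart. It was 23.5 ± 20.4 in XX DKO and 108 ± 22.9 in XX Ctnnb1KO (SD, n = 4 each), a difference of -1.77 with an interval of -2.66 to -0.89, which is past an unadjusted p (0.000313) and not the adjusted one (0.293). Xist was 51.1 on replicate 4 of XX Ctnnb1KO, whose Y-linked signals were low too, and no gene was called without it either. A term for Ctnnb1 and Sox9 loss beyond their sum, taken over the 4 XX groups, called 0 genes in limma (471 at an unadjusted p under 0.05).

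Against XX Sox9KO, where a copy of Ctnnb1 that is not floxed is retained, 1592 genes were called (13.5%). Of these, 867 were higher in XX DKO (7.36%) and 725 lower (6.16%). This comparison and that with XX Ctr share the XX DKO arrays, so their values are given side by side. Fst fell by 3.75 against XX Sox9KO and by 3.65 against XX Ctr, Tnfrsf19 by 2.31 and 2.12, and Thbs2 by 2.60 and 2.53. Lefty2 rose by 4.58 against XX Sox9KO and by 4.61 against XX Ctr, and Hsd17b3 by 4.49 and 4.50. Sox9 itself was 23.5 ± 20.4 in XX DKO and 29.1 ± 22.8 in XX Sox9KO (SD, n = 4 each, adjusted p = 0.81).

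**Figure D5:**
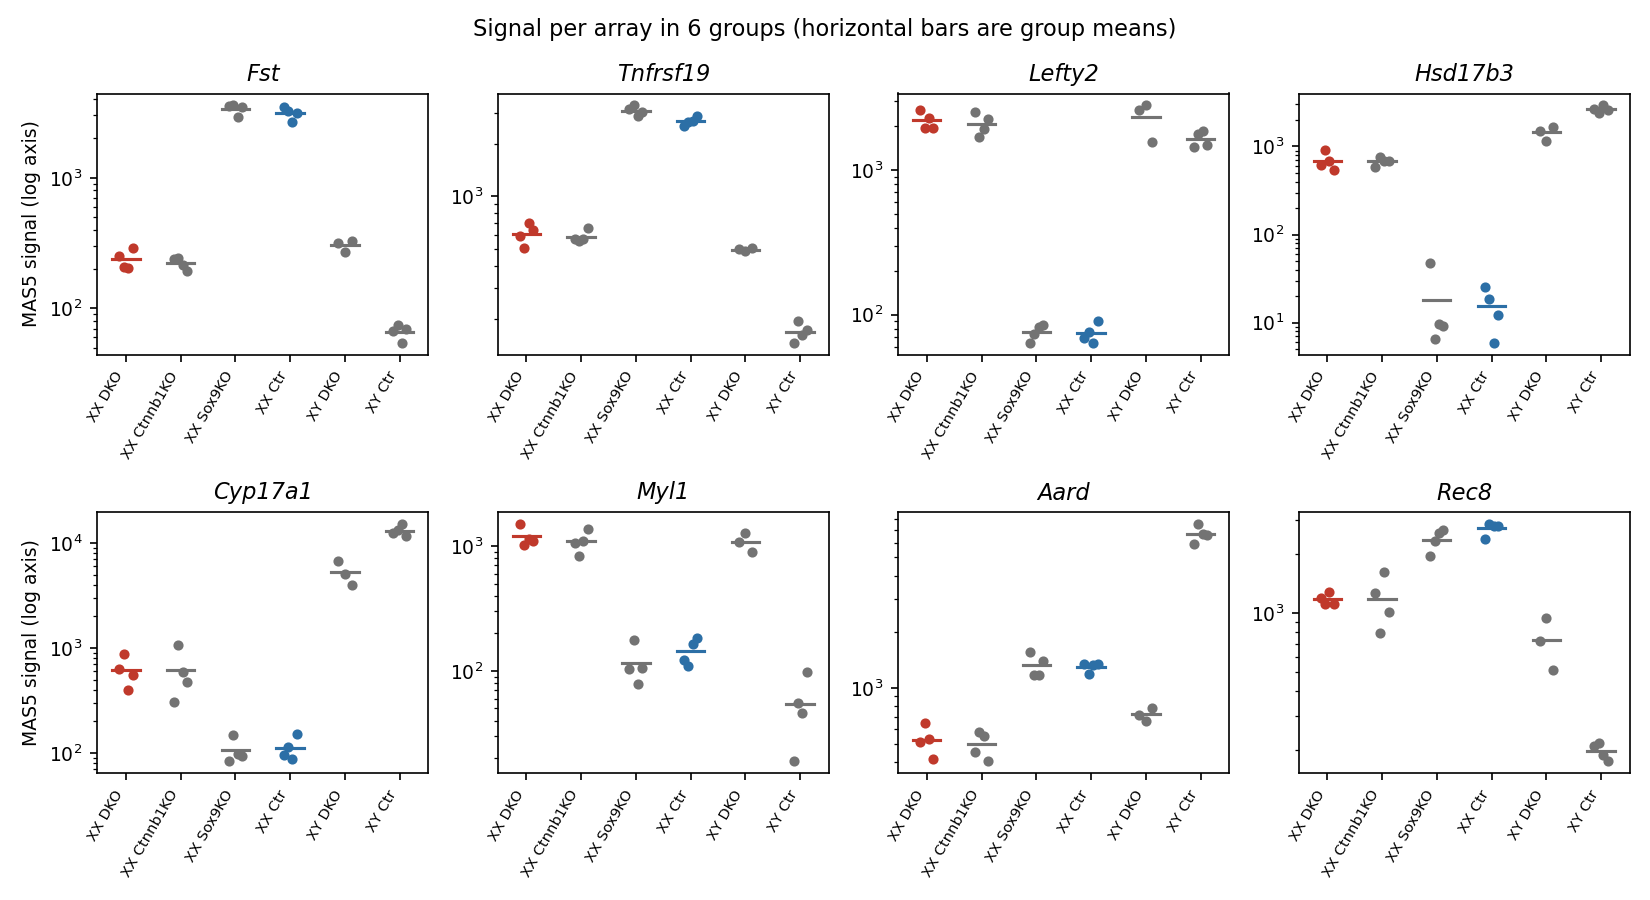
Signal (arbitrary units, log axis) of 8 genes in each array of XX DKO, XX Ctnnb1KO, XX Sox9KO, XX Ctr, XY DKO and XY Ctr, 1 point an array, with bars at group means. XX DKO points overlap those of XX Ctnnb1KO and lie apart from XX Sox9KO and XX Ctr in every panel, and Cyp17a1 shows a step between XX DKO and XY DKO.

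Gonads with the same 2 deletions but different sex chromosomes were compared last. Between XX DKO and XY DKO 615 genes were called (5.22%), 209 higher in XX DKO (1.77%) and 406 lower (3.45%). Replicate 3 of XY DKO had the lowest median signal of all arrays in the series, 120.6. It also had the highest ratio of 3' to 5' actin control signal, 1.212. All 6 tested Leydig genes were lower in XX DKO. Cyp17a1 was 616 ± 198 in XX DKO (SD, n = 4), against 5258 ± 1343 in XY DKO (SD, n = 3), Cyp11a1 differed by -3.71 ± 0.33 and Hsd3b1 by -2.83 ± 0.19 (SE, adjusted p = 4.49e-09 and 4.5e-12). The hedgehog target Gli1 differed by -1.67 ± 0.31 and the ligand Dhh by -1.24 ± 0.18 (SE, adjusted p = 0.00111 and 5.09e-05), and 9 of 22 Sertoli genes were lower, among them Hsd17b3 at -1.06 and Ptgds at -0.88.

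Ovarian and meiotic genes ran the other way in that comparison: 7 of 14 ovary genes and 4 of 20 meiotic genes were higher in XX DKO and none was lower. Msx1 was 362 ± 63.3 in XX DKO (SD, n = 4), against 140.3 ± 17.3 in XY DKO (SD, n = 3), Irx3 was higher by 1.24, and Stra8 by 1.18 ± 0.35 (SE, adjusted p = 0.041). Lefty2, Myl1, Fst and Calb1 differed by -0.04, 0.14, -0.36 and -0.04 and were not called. Xist and the Y-linked genes, which follow the karyotype, accounted for the largest differences, 6.78 for Xist and -6.56 for Eif2s3y. With only the 7 arrays of the 2 groups, 179 genes were called, and without XX DKO replicate 3 the count was 349.

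Set against XY Ctr, 3465 genes were called (29.4%), 1912 higher in XX DKO (16.2%) and 1553 lower (13.2%). Of 22 Sertoli genes 18 were lower and 1 was higher in XX DKO, and all 6 Leydig genes were lower, at differences of -5.27 for Cyp11a1 and -4.43 for Cyp17a1. Of 14 ovary genes 11 were higher and 1 was lower, with Foxl2 higher by 3.64 ± 0.15 (SE, adjusted p = 8.97e-18), and 19 of 20 meiotic genes were higher, with Stra8 higher by 3.67 ± 0.32 (SE, adjusted p = 1.53e-10). Vnn1, Egr1, Sorbs2 and Wnt4 were not called between XX DKO and XY Ctr, at differences of -0.08, -0.06, -0.01 and 0.23.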

How the data were processed

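Gene expression was measured on 31 single-colour arrays, of which 8 form the main comparison (4 XX DKO, 4 XX Ctr). The authors deposited one intensity for each probe set on a linear scale. Per the submitters' processing notes it came from MAS5, with version and scaling target not given in the sources used here. Every array has a trimmed mean of 500.0 (0.02 trimmed at each end). Amplification of 40 ng RNA can favour transcript ends. The number of arrays, in place of a read depth, limits precision.

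Of 45101 probe sets, 64 controls were left out, and 34945 have 1 gene symbol, 932 several and 9160 none by the platform annotation. Symbols were updated by Entrez identifier in RefSeq (34741 matched). Each of 18193 genes was read from its brightest probe set by mean over the 31 arrays, and 9010 had several. A gene was kept (11777) where it exceeded the median probe set of the same array on 3 or more arrays.

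Groups came from the sample titles. limma 3.58.1 in R 4.3.3 was fitted to log2(signal + 16) with 8 group means over all arrays, contrasts and eBayes with a trend (23 residual and 6.69 prior degrees of freedom). A gene was called at a Benjamini-Hochberg adjusted p under 0.05. Pairs of gonads are biological replicates per the labels' protocols. The limma step was tested on simulated data.

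Named genes are members of 28 lists (378 genes, 301 tested), up to 6 described per list with its defining genes, plus the 15 largest rises and falls outside the lists among called genes with separated arrays and a mean above the median, without predicted genes. The groups compared, members and lists were chosen with earlier results of these data known. Replicate numbers were not used to pair the samples. Deviations of same-numbered XX DKO and XX Ctr arrays correlated at 0.15, -0.29, -0.01 and -0.07. XX DKO correlated at 0.54 with XX Ctnnb1KO for replicate 2, at 0.30 with XX Sox9KO for replicate 3 and at 0.36 with XY DKO for replicate 4. The other same-numbered pairs with these 3 groups lay between -0.11 and 0.29. Whether a number marks a batch is not given by the titles. Other settings tried were a quantile normalization, a pseudocount of 1 or 64, no filter, the mean over probe sets, only the arrays compared, the replicate number as a block and leaving out each array. Promoters are from RefSeq, GRCm38.p6.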

Additional observations from a re-analysis of the deposited data

Results flagged for a closer look

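Signals of 62 genes were screened in both groups for 1 array that stood apart from the other 3, and 7 of 124 screens passed, where chance gives about 1 in 20. None of these arrays was left out of any value above. In XX DKO, Amh was 54.4 on replicate 3 and 9.30 to 13 on the others, Gstm6 was 310.7 on replicate 2 and 397 to 409 on the others, and Cbln1 was 1619.2 on replicate 1 and 814 to 889 on the others. In XX Ctr, Ptgds was 368.1 on replicate 3 and 195.5 to 213.5 on the others, Aard was 1184.8 on replicate 2 and 1331 to 1339 on the others, Lefty1 was 14 on replicate 2 and 2.20 to 2.80 on the others, and Rec8 was 2401.9 on replicate 1 and 2782 to 2864.5 on the others. Replicates 1, 2 and 3 of each group all appear among them, and the cause was not tested.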

How the results depend on the processing

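The count of 1519 genes between XX DKO and XX Ctr was 1020 to 1535 under the alternatives that keep all arrays of these groups and 1137 to 1517 when arrays were left out, 1137 without XX DKO replicate 1. Against XX Sox9KO, 1188 to 1681 genes were called when arrays were left out, and against XY Ctr 2936 to 3455. Against XX Ctnnb1KO and for the joint term in XX, 0 genes were called under every alternative run. The count against XY DKO, 615, was 179 with only the arrays compared and 349 to 660 when arrays were left out: 391 without XX DKO replicate 2, 349 without XX DKO replicate 3 and 366 without XY DKO replicate 4. The cause was not tested. With the replicate number as a block, 1496 genes were called between XX DKO and XX Ctr, and no count over all genes moved by over 1.5 times. Among the named genes it ended the calls of Pecam1, Fzd1 and Col9a3. The titles give a number and no batch, and of the 4 XX DKO arrays replicate 1 alone correlated best with its own number in XX Ctr.

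Of 159 named genes called between XX DKO and XX Ctr, 121 were called under every alternative. Part of them were named for large, separated differences in this same comparison or after their values were seen. Their share therefore does not describe all called genes. Over 2536 pairs of gene and alternative, 2366 kept the call, 170 lost it and 0 changed direction. With 4 arrays a group, differences of dim genes such as Amh and Sox9 have wide errors.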
